A study of Homo sapiens with 4 samples.

Results

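The anti-apoptotic BCL2 family comprises the 5 genes BCL2L1, BCL2, MCL1, BCL2L2 and BCL2A1, which were found by symbol among the 58735 genes of a count table. The table holds RNA-seq of SUP-M2, an established human cell line. It was derived from an anaplastic large cell lymphoma, a tumour of mature T cells, of the kind driven by a constitutively active ALK fusion kinase. Its 4 libraries form 2 groups, with 2 libraries from cells carrying short hairpin RNA against GOLM1 (shGOLM1) and 2 from cells carrying a scrambled hairpin (shscramble). GOLM1 makes a protein of Golgi membranes, and the series ties it to apoptosis through the stability of BCL-XL, the protein made from BCL2L1. By genotype the labels describe the samples as knockout and control, although hairpins lower a transcript rather than delete a gene. The labels do not say whether the shGOLM1 libraries carried the same hairpin or came from separate cultures, so the spread behind the p-values is that of the libraries at hand and may be technical.

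Anti-apoptotic BCL2 proteins sit mainly on the outer mitochondrial membrane and hold cell death in check. Each has a groove that binds the BH3 segment of pro-death relatives. In that groove they hold the effectors BAX and BAK1, which otherwise open the membrane and release cytochrome c, and the BH3-only proteins that activate those effectors. The members differ in which BH3-only proteins they bind, and in how long they last, since MCL1 protein is degraded quickly and BCL-XL is more stable. ALK signalling through STAT3 is known to raise transcription of family genes such as BCL2L1 and MCL1 in this lymphoma. RNA counts give transcript levels only and carry no information on protein stability.

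The libraries held 30889185 and 27544171 counts in shGOLM1 and 31972153 and 31608073 counts in shscramble. GOLM1 was at 69.5 and 69.4 CPM in shGOLM1 against 212 and 213 CPM in shscramble, where CPM expresses a count relative to its library's total after scaling by the trimmed mean of M values (TMM). The shGOLM1 libraries resembled each other less than the shscramble libraries did, with log2 CPM correlating across 14166 genes at 0.873 and 0.989. Replicate 1 of shGOLM1 was closer to the shscramble libraries, at 0.947 and 0.953, than to shGOLM1 replicate 2, which correlated with them at 0.854 and 0.852. Transcripts of mitochondrial DNA made up 0.455% of counts in shGOLM1 replicate 2, against 1.95% in shGOLM1 replicate 1 and 2.38% and 2.24% in shscramble. Replicate 2 of shGOLM1 had 14.7% of its counts on genes of ribosomal proteins, against 6.57% in shGOLM1 replicate 1 and 8.77% and 7.44% in shscramble. Results are therefore given by library, and also with each shGOLM1 library alone; the part of these differences between libraries in the results below was not tested. Of 8 markers of this lymphoma and of T cells, 7 passed the filter on low counts. ALK was at 327 and 170 CPM in shGOLM1 against 340 and 316 CPM in shscramble, and TNFRSF8, which encodes CD30, at 538 and 88.3 against 634 and 614 CPM. GZMB, which encodes granzyme B, was at 149 and 20.4 CPM in shGOLM1 against 118 and 86.2 CPM in shscramble, and IL2RA at 345 and 598 against 475 and 469 CPM. Higher in both shGOLM1 libraries were PRF1, which encodes perforin, at 620 and 145 CPM against 2.91 and 2.7 CPM in shscramble, CD4 at 307 and 379 against 182 and 180 CPM, and CD2 at 5.07 and 5.79 against 2.17 and 2.85 CPM. CD3E, the T cell receptor subunit that this lymphoma often lacks, had at most 1 count in each library. Summed B cell markers lay between 0.317 and 0.658 CPM in shGOLM1 and between 0.18 and 0.245 CPM in shscramble, with MS4A1 and CD79B at 0 counts, and the 4 erythroid markers had 0 counts throughout. Summed epithelial markers lay between 0.605 and 3.16 CPM in shGOLM1 and between 0.398 and 0.601 CPM in shscramble. Among 5 myeloid markers CSF1R alone exceeded 1 CPM in any library, at 309 and 231 CPM in shGOLM1 against 235 and 242 CPM in shscramble, while CD163 had 0 counts.

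All 5 members were expressed and passed the filter on low counts. Levels were compared between genes with the authors' FPKM, which divides by gene length as well as by a library scale. That scale followed the TMM-scaled CPM more closely than library totals alone. GOLM1, for example, had 2414 and 1583 counts in shGOLM1 and was at 16.0 FPKM in both libraries. MCL1, the short-lived member, was far above the others at 134 and 181 FPKM in shGOLM1 against 134 and 140 FPKM in shscramble. It made up 92.7% and 92.5% of the summed FPKM of the family in shGOLM1 and 89.4% and 90.7% in shscramble. Its level stood above that of 98.0% to 98.5% of the tested genes in every library.

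BCL2L1 was the next member in shscramble, at 8.08 and 6.59 FPKM, and was at 5.29 and 4.54 FPKM in shGOLM1. BCL2L2, which encodes the BCL-XL relative BCL-W, followed at 2.53 and 3.98 FPKM in shGOLM1 against 3.78 and 4.04 FPKM in shscramble. BCL2A1, an NF-kB-inducible member, was at 1.36 and 5.13 FPKM in shGOLM1 against 2.95 and 2.70 FPKM in shscramble. BCL2, the founding member of the family, was lowest at 1.34 and 1.07 FPKM in shGOLM1 against 1.16 and 1.05 FPKM in shscramble. The order MCL1, BCL2L1, BCL2L2, BCL2A1, BCL2 held in both shscramble libraries and in shGOLM1 replicate 1. In shGOLM1 replicate 2 BCL2A1 moved up to rank 2, ahead of BCL2L1 and BCL2L2. In shGOLM1 the levels of BCL2A1 overlapped those of BCL2L1 and of BCL2L2, so those neighbours did not differ beyond the spread between replicates. BCL2 has 11765 exonic bases and BCL2A1 1089, and FPKM takes this union of exons as the length whichever transcript a cell makes.

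**Figure D1:**
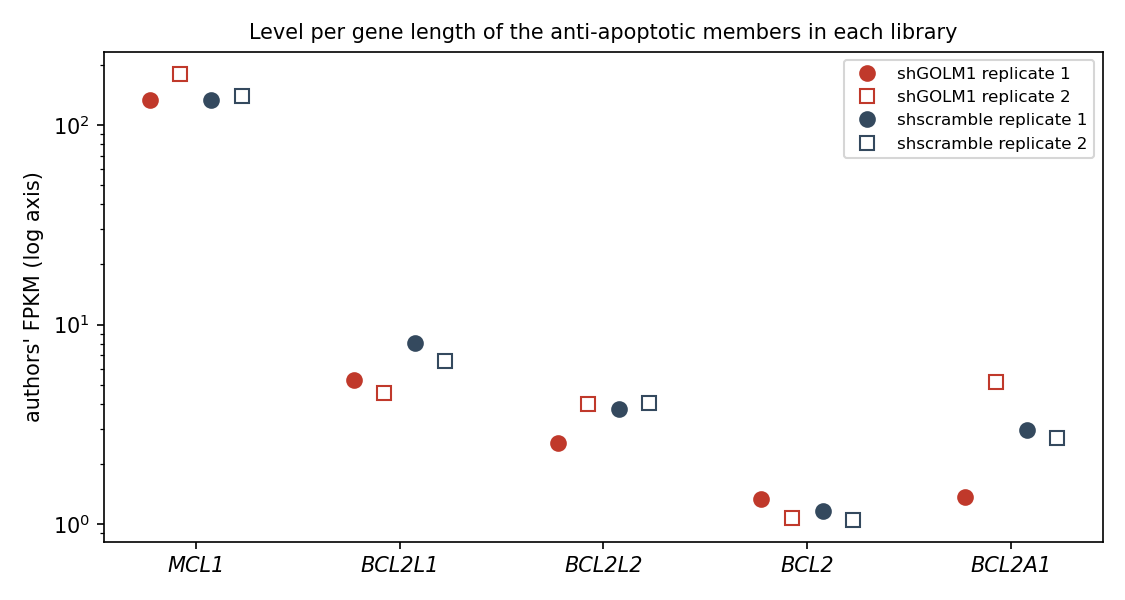
Level of each anti-apoptotic member in each library, as the authors' FPKM on a log axis; red marks are shGOLM1, dark marks shscramble, filled circles replicate 1 and open squares replicate 2. MCL1 lies between 134 and 181 FPKM and the other 4 members between 1.05 and 8.08 FPKM.

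None of the members passed the test between shGOLM1 and shscramble. By edgeR's quasi-likelihood test on all 4 libraries, with Benjamini-Hochberg adjustment over 14166 genes, 0 of the 5 members and 0% of all tested genes had an adjusted p under 0.05. At an unadjusted p under 0.05 there were 0 members, against 11.8% of all tested genes, and DESeq2 and limma-voom also called 0 members. DESeq2 called 3.69% of the genes it tested and limma-voom 0%. In TMM-scaled CPM the groups did not overlap for 1 member, BCL2L1. Over all tested genes on that scale, 26.5% had each shGOLM1 library under each shscramble library and 25.2% had the opposite order. This count depends on the scaling. By library totals alone, MCL1 was also separated, higher in shGOLM1, and so was BCL2L2, lower in shGOLM1. The share of all genes separated by totals alone was not counted. The median log2 fold change of the members was 0.15, and that of all tested genes 0.05. Set against the mean of shscramble, the members' median difference was -0.44 for shGOLM1 replicate 1 but 0.05 for replicate 2, so its sign depended on the library.

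BCL2L1 (ENSG00000171552, chromosome 20, 31664452 to 31723989, minus strand, GRCh38) had 625 and 353 counts in shGOLM1 against 882 and 734 counts in shscramble. This was 18 and 15.5 CPM in shGOLM1 and 27.0 and 22.1 CPM in shscramble, so that both shGOLM1 libraries lay lower. The 95% Poisson counting intervals did not meet either, the highest shGOLM1 bound being 19.5 CPM and the lowest shscramble bound 20.5 CPM, although such intervals cover counting error only. The log2 fold change was -0.55 (SE 0.33), 1.46-fold lower, with a 95% interval from -1.43 to 0.33 and an adjusted p of 0.533 in edgeR's test. It kept its sign under all 11 alternatives, between -0.74 and -0.43. These refit all or part of the same 4 libraries, so the kept sign is no separate support. In the alternatives with all 4 libraries, by edgeR, DESeq2 and limma-voom, the adjusted p lay from 0.539 to 0.898. The interval spans no change as well as a decrease larger than the fitted one.

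The gene has 9 annotated transcripts in GENCODE 29, from which splicing makes the long protective form BCL-XL and a short pro-death form, BCL-XS, and the counts per gene do not separate them. An antisense gene, ABALON, shares 1424 of its 3314 exonic bases. ABALON had 18 and 2 counts in shGOLM1 and 37 and 25 counts in shscramble. No label or header gives the strand setting of the counting, so reads of BCL2L1 and ABALON cannot be told apart with certainty.

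MCL1 (ENSG00000143384, chromosome 1, 150574551 to 150579738) had 20850 and 18551 counts in shGOLM1 against 19310 and 20499 counts in shscramble. Scaled, this was 601 and 814 CPM in shGOLM1 and 592 and 616 CPM in shscramble. Replicate 1 of shGOLM1 lay between the shscramble libraries and replicate 2 above both. The log2 fold change was 0.23 (SE 0.34), with a 95% interval from -0.68 to 1.14 and an adjusted p of 0.788 in edgeR's test. The raw count of replicate 2 was the lowest of the 4 and its scaled level the highest, the TMM factor being 0.828 in that library and 1.12 in shGOLM1 replicate 1. By library totals alone, the shGOLM1 libraries were nearly level with each other and both above shscramble. The log2 fold change was then 0.11 in edgeR.

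BCL2 (ENSG00000171791, chromosome 18, 63123346 to 63320128) was at 16.2 and 13 CPM in shGOLM1 against 13.8 and 12.5 CPM in shscramble. The groups overlapped, and the log2 fold change was 0.15 (SE 0.35), with a 95% interval from -0.80 to 1.10 and an adjusted p of 0.869 in edgeR's test. BCL2L2 (ENSG00000129473, chromosome 14, 23298790 to 23311759) was at 10.9 and 17.2 CPM in shGOLM1 against 16.0 and 17.1 CPM in shscramble. Only shGOLM1 replicate 1 stood below the shscramble libraries, and the log2 fold change was -0.24 (SE 0.40), with a 95% interval from -1.30 to 0.82 and an adjusted p of 0.812 in edgeR's test. BCL2L2 shares 813 exonic bases with the readthrough gene BCL2L2-PABPN1, which had at most 5 counts in each library, and 206 with PPP1R3E on the other strand.

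BCL2A1 (ENSG00000140379, chromosome 15, 79960889 to 79971446) was the member with the widest spread. It had 53 and 131 counts in shGOLM1 against 106 and 99 counts in shscramble, or 1.53 and 5.75 CPM against 3.25 and 2.98 CPM. One shGOLM1 library was thus below the shscramble libraries and the other above them. Counting error alone did not cover this gap, with 95% Poisson intervals of 1.14 to 2.0 CPM in shGOLM1 replicate 1 and 4.8 to 6.82 CPM in replicate 2. The log2 fold change was 0.22 (SE 0.77), with a 95% interval from -1.84 to 2.28 and an adjusted p of 0.918 in edgeR's test. Its sign turned under limma-voom, at -0.14, and with the replicate number as a block, at -0.06.

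**Figure D2:**
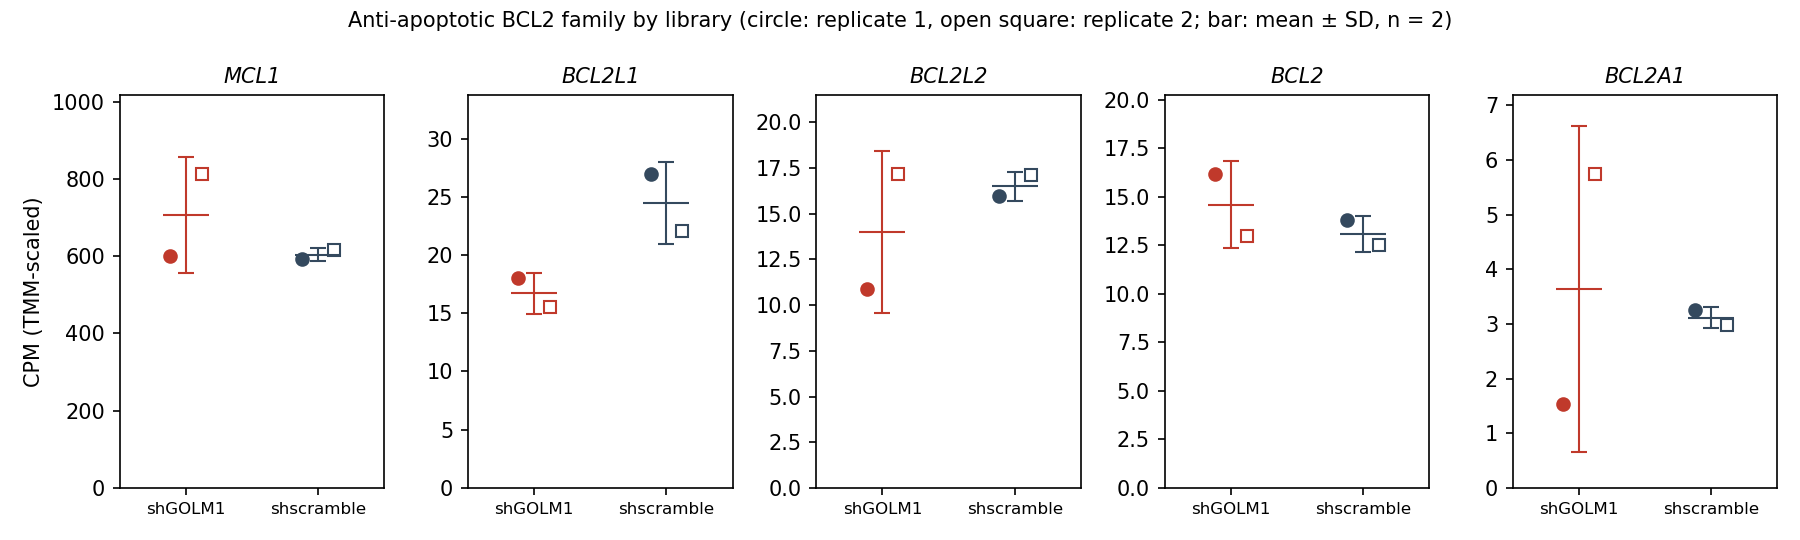
TMM-scaled CPM of each member by library, with shGOLM1 left and shscramble right in each panel and each axis starting at 0; the short bar is the mean and the whisker the SD of 2 libraries. BCL2L1 is the member whose groups do not overlap, and BCL2A1 has shGOLM1 libraries on either side of the shscramble pair, at 1.53 and 5.75 CPM.

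The members also differed in how far the shGOLM1 libraries lay apart. The gap between those libraries in log2 CPM was 0.22 for BCL2L1, 0.31 for BCL2, 0.44 for MCL1, 0.65 for BCL2L2 and 1.87 for BCL2A1, where the median gap of all tested genes was 0.95. BCL2L1 had a smaller gap than most genes, with 12.5% of tested genes below it, while 80.1% lay below BCL2A1. Between the shscramble libraries the gaps were 0.06 to 0.29, the widest being that of BCL2L1, and the median of all tested genes was 0.15. On this TMM scale the gap of BCL2L1 in shGOLM1 was thus no wider than its gap in shscramble. The shGOLM1 gaps depend on the TMM factors, 1.12 in replicate 1 and 0.828 in replicate 2. By library totals alone, the gap of BCL2L1 was wider in shGOLM1 than in shscramble, and that of MCL1 in shGOLM1 nearly closed.

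With 1 shGOLM1 library set against both shscramble libraries, 3 members passed in each fit, of which BCL2L1 and BCL2A1 were common to both. These fits share the shscramble libraries, take the spread of the shscramble pair for the lone library, and compare libraries rather than conditions. With shGOLM1 replicate 1 alone, edgeR called 3 of 5 members, where it called 44.5% of all genes. BCL2L1 had a log2 fold change of -0.46 (adjusted p = 0.0208), BCL2L2 of -0.62 (adjusted p = 0.0055) and BCL2A1 of -1.04 (adjusted p = 0.0249), all lower. With shGOLM1 replicate 2 alone, edgeR again called 3 of 5 members, where it called 67.4% of all genes. BCL2L1 was lower at -0.71 (adjusted p = 0.0015), whereas MCL1 was higher at 0.38 (adjusted p = 0.00648) and BCL2A1 higher at 0.84 (adjusted p = 0.0158). BCL2 passed with neither library, at 0.28 with replicate 1 and -0.06 with replicate 2. Over all 11 alternatives the adjusted p reached up to 1.0 for each member. The authors' deposited table gives log2 fold changes of -0.58 for BCL2L1, 0.20 for MCL1, -0.27 for BCL2L2, 0.13 for BCL2 and 0.19 for BCL2A1, with adjusted p from 0.75 for BCL2L1 to 0.966 for BCL2.

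**Figure D3:**
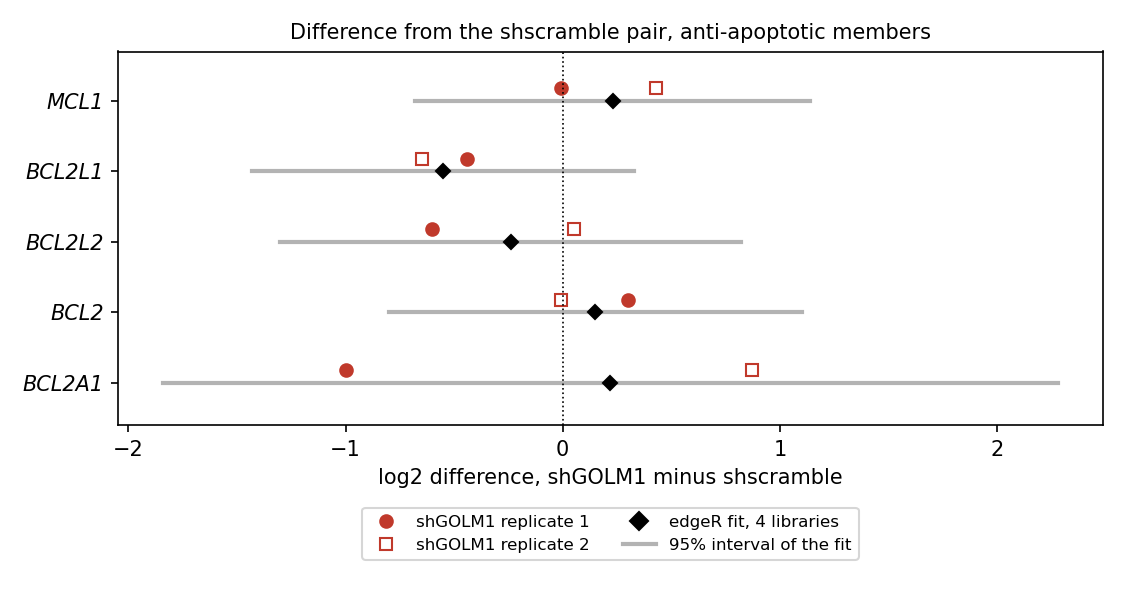
Log2 difference of shGOLM1 from shscramble for each member; circles and squares are shGOLM1 replicates 1 and 2 against the shscramble mean, diamonds the edgeR fold change over 4 libraries and grey bars its 95% interval. All 5 bars cross 0, both BCL2L1 libraries lie left of 0 at -0.44 and -0.65, and the BCL2A1 libraries lie at -1.0 and 0.87.

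Ratios between members inside a library do not depend on how libraries are scaled, so the 10 ratios of the members were taken from the authors' FPKM. The groups did not overlap for 3 of them, each built on BCL2L1 or MCL1, with 3 lower and 0 higher in shGOLM1. Among single genes, 26.5% had both shGOLM1 libraries lower and 25.2% had both higher. Counted in either direction, 3 in 10 was thus no more than the share of single genes without overlap. Ratios that share a gene are not independent, and the shares are those of genes rather than of ratios. The ratio of BCL2L1 to BCL2 was 3.96 and 4.23 in shGOLM1 against 6.96 and 6.28 in shscramble. That of BCL2L1 to MCL1 was 0.0395 and 0.0251 in shGOLM1 against 0.0602 and 0.0472 in shscramble. BCL2L2 to MCL1 stood at 0.0189 and 0.022 in shGOLM1 against 0.0282 and 0.029 in shscramble. In each, the shGOLM1 libraries were the lower ones. The exact two-sided permutation p was 0.33 for each of the 3, which is the smallest that 2 against 2 libraries allow. BCL2A1 to BCL2L1 ranged more widely, at 0.258 and 1.13 in shGOLM1 against 0.366 and 0.41 in shscramble, and the groups overlapped.

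The partners that these proteins hold in their groove were taken from a list of 11 effectors and BH3-only genes, of which 7 passed the filter. By edgeR 0 rose and 0 fell over all 4 libraries; at an unadjusted p under 0.05, 2 were higher and 1 lower in shGOLM1, where 8.2% of all tested genes were higher and 3.58% lower. One of the higher ones, BMF, passed the filter only through shGOLM1, so these counts are a description. DESeq2 called 1 of the list, BBC3. BCL2L11, which encodes the BH3-only protein BIM, had 0 counts in all 4 libraries, which allows up to 0.0938 to 0.109 CPM. BOK, HRK and BIK also stayed under the filter, with at most 5 counts in any library.

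The effectors were the most even of the partners. BAX was at 120 and 107 CPM in shGOLM1 against 118 and 105 CPM in shscramble, and BAK1 at 54.0 and 70.8 against 55.8 and 53.6 CPM. Their log2 fold changes were 0.03 (95% interval -0.70 to 0.76) and 0.19 (95% interval -0.61 to 0.99), and both signs turned in some alternatives. Relative to BCL2L1, the FPKM of BAX was 8.53 and 8.84 times as high in shGOLM1 against 5.57 and 6.1 times in shscramble. BAK1 was 4.5 and 6.85 times the FPKM of BCL2L1 in shGOLM1 against 3.09 and 3.64 times in shscramble. Both ratios were higher in each shGOLM1 library than in each shscramble library, with an exact permutation p of 0.33 each. Against members other than BCL2L1, only BAX to BCL2 and BAK1 to MCL1 were taken. BAX to BCL2 was lower in both shGOLM1 libraries, at 33.7 and 37.4 against 38.8 and 38.3 in shscramble. For BAK1 to MCL1 the groups overlapped, at 0.178 and 0.172 in shGOLM1 against 0.186 and 0.172 in shscramble. Effector ratios to BCL2L2 and BCL2A1 were not taken, so a shift particular to BCL2L1 is not shown.

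Among BH3-only genes, BBC3, which encodes the p53-inducible protein PUMA, had 319 and 1301 counts in shGOLM1 against 108 and 122 counts in shscramble. That was 9.19 and 57.1 CPM in shGOLM1 against 3.31 and 3.67 CPM in shscramble, with both shGOLM1 libraries higher. The log2 fold change reached 3.25 (SE 0.98), which did not pass edgeR's test over 4 libraries (adjusted p = 0.42). BBC3 passed in DESeq2 (adjusted p = 0.00263), in edgeR without a low-count filter (adjusted p = 0.0388) and with the replicate block (adjusted p = 0.0497), in a range from 5.6e-12 to 1.0 over 11 alternatives. In the authors' deposited table its log2 fold change is 3.22, at an adjusted p of 0.00278. That fold change and its unadjusted p equal those of the DESeq2 fit, so the deposited value is not a separate result. PUMA binds all the anti-apoptotic members, and the FPKM ratio of BBC3 to BCL2L1 was 0.532 and 3.84 in shGOLM1 against 0.128 and 0.173 in shscramble.

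PMAIP1, which encodes NOXA, a protein that binds chiefly MCL1 and A1, was at 113 and 466 CPM in shGOLM1 against 111 and 107 CPM in shscramble. Its ratio to MCL1 in FPKM was 0.368 and 1.12 in shGOLM1 against 0.366 and 0.34 in shscramble, so the separation in replicate 1 was very small. BMF was at 1.53 and 1.32 CPM in shGOLM1 against 0.214 and 0.21 CPM in shscramble, from 53 and 30 against 7 and 7 counts. BID, which is activated by caspase cleavage, was at 1.79 and 1.67 CPM in shGOLM1 against 0.705 and 0.721 CPM in shscramble. BAD, whose product binds BCL2, BCL-XL and BCL-W, was at 6.48 and 4.69 CPM in shGOLM1 against 11.6 and 12.9 CPM in shscramble, the 1 tested partner with both shGOLM1 libraries lower. None of these 4 passed edgeR's test on all 4 libraries, with adjusted p of 0.487 for PMAIP1, 0.42 for BMF, 0.452 for BID and 0.421 for BAD.

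**Figure D4:**
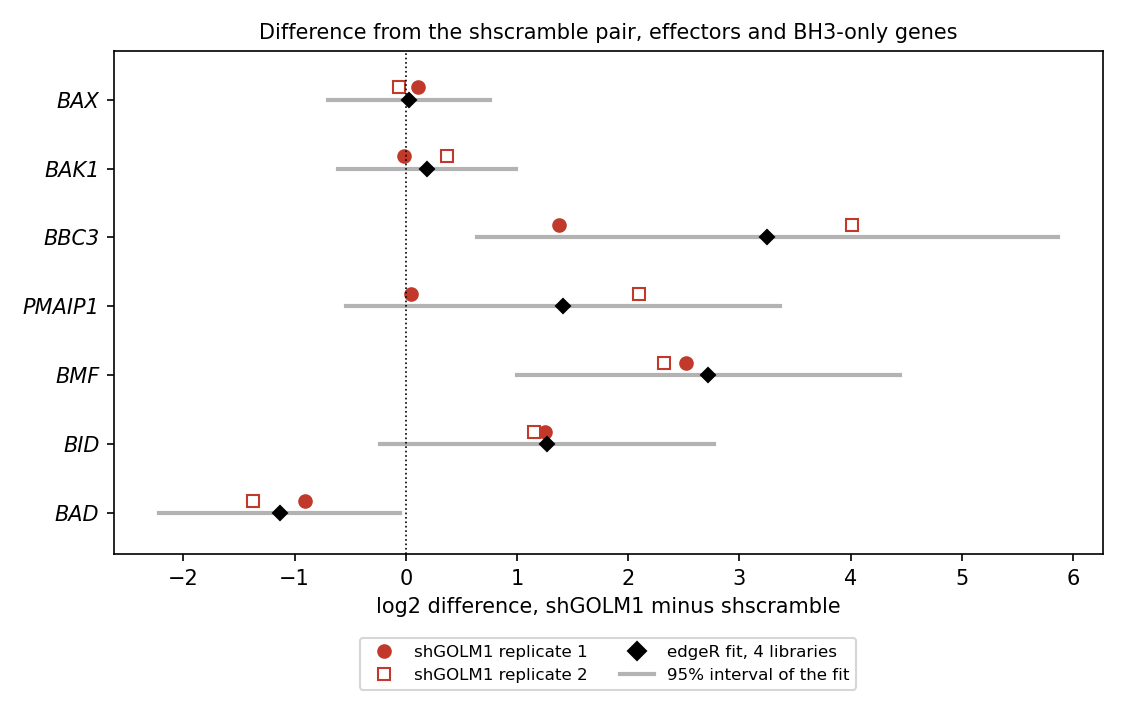
Log2 difference of shGOLM1 from shscramble for the 7 tested effectors and BH3-only genes, drawn as for the anti-apoptotic members. BAX and BAK1 lie near 0, BBC3 and PMAIP1 are farther right in shGOLM1 replicate 2 than in replicate 1, and BAD lies left of 0 in both.

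Transcription factors known to act on the family were described from a list of 11, of which 10 were tested. By edgeR 0 rose and 0 fell, where 0% of all tested genes did, and 0 were at an unadjusted p under 0.05, against 11.8% of all tested genes. The median log2 fold change was 0.18, with median differences from the shscramble mean of 0.15 in shGOLM1 replicate 1 and 0.14 in replicate 2. STAT3 was nearly level, at 293 and 296 CPM in shGOLM1 against 266 and 279 CPM in shscramble. STAT5A had at most 3 counts in each library. NF-kB subunits are known to drive BCL2A1. NFKB2 was at 97.0 and 470 CPM in shGOLM1 against 77.8 and 77.3 CPM in shscramble, and RELB at 13 and 50.6 against 13 and 10.3 CPM. CEBPB, a factor that in this lymphoma is known to act on BCL2A1, was at 65.4 and 187 CPM in shGOLM1 against 80.7 and 67.6 CPM in shscramble. These 3 genes, like BCL2A1, had their highest value in shGOLM1 replicate 2, and of them only CEBPB, like BCL2A1, also had its lowest in shGOLM1 replicate 1. Of the other tested factors, STAT3, REL and CREB1 were also highest in shGOLM1 replicate 2, while RELA, MYB and NFKB1 were lowest there. CREB1 too was lowest in shGOLM1 replicate 1, by a small margin, at 92.5 and 106 CPM in shGOLM1 against 93.9 and 95.8 CPM in shscramble. RELA was at 116 and 95.6 CPM in shGOLM1 against 105 and 106 CPM in shscramble, and MYB at 215 and 71.0 against 140 and 146 CPM. A link between any of these factors and the level of BCL2A1 was not tested. REL was at 11.5 and 12.4 CPM in shGOLM1 against 6.28 and 8.44 CPM in shscramble, and NFKB1 at 58.2 and 54.0 against 73.0 and 72.9 CPM. Among NFKB2, RELB, CEBPB, REL and NFKB1, adjusted p in edgeR's test lay from 0.448 for NFKB2 to 0.60 for CEBPB.

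More distant relatives of the family were largely silent. Of 6 such genes, BCL2L12 and BCL2L13 passed the filter. BCL2L12 was at 37.4 and 39.2 CPM in shGOLM1 against 57.0 and 49.0 CPM in shscramble, the same order of groups as BCL2L1, with a log2 fold change of -0.47 (SE 0.28; adjusted p = 0.537 in edgeR). BCL2L13, a mitochondrial relative, was at 49.0 and 49.2 against 40.0 and 41.7 CPM, with an adjusted p of 0.694.

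The genes most like each member over the 4 libraries were found among protein-coding genes of at least 5 CPM, by Euclidean distance between centred log2 CPM values. For BCL2L1 these were TUSC2, PIGC and CENPV, at distances of 0.0347, 0.0519 and 0.0571. TUSC2 was at 33.3 and 29 CPM in shGOLM1 against 51.5 and 41.8 CPM in shscramble. For BCL2 they were SRD5A3, LIMA1 and PNPLA6, for MCL1 SREK1, USP4 and APP, and for BCL2L2 C1orf123, JTB and LRRFIP1, all at distances from 0.0266 to 0.0659. For BCL2A1 they were SMIM10L1, PIGL and STMN1, at distances from 0.0386 to 0.0803. With only 4 libraries such likeness is common: 219 of 9240 genes lay within 0.25 of BCL2L1 and 436 within 0.25 of MCL1, while 68 of 9241 lay that close to BCL2A1.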

How the data were processed

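Per the labels' protocols, total RNA of SUP-M2 was taken with an RNeasy kit and made into libraries with a SMARTER kit. No source used here names the aligner or counter. Per the submitters' processing notes the builds were GRCm38 and mm10, but all 58735 gene identifiers and coordinates equal those of GENCODE 29 on GRCh38. The deposited counts are whole numbers per gene, in columns whose headers say only count, and were taken as reads without normalization. FPKM values in the deposited table were scaled by the authors for gene length and library. Between libraries they followed the TMM-scaled levels more closely than library totals alone. The authors' table also holds a mean signal per group, a log2 fold change, and p-values, with no tool named. For the members and BBC3 its log2 fold changes and unadjusted p equal those of the DESeq2 fit made here, and only the adjusted p differs.

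Samples were grouped by title. Counts were tested with edgeR 4.0.16 (R 4.3.3, limma 3.58.1): TMM factors, filterByExpr, quasi-likelihood, two-sided, no covariate, Benjamini-Hochberg over 14166 genes, threshold 0.05. SE is the log2 fold change over the root of F. Log2 CPM used a prior count of 2. A count of 0 allows up to 3 counts per library. Alternatives included DESeq2 1.42.0. The procedure was checked on simulated counts drawn with the same spread in both groups. The real groups differed in spread, so this check does not cover that feature of the data. Members and lists were chosen with earlier results of these data known. The named genes were the members, GOLM1, up to 5 genes of smallest p and at least 1 CPM per list, and 3 most alike genes per member; others named from the lists were taken after their values were seen.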

Additional observations from a re-analysis of the deposited data

How the results depend on the processing

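Of 54 values of the members under 11 alternatives, 43 kept their direction and stayed on the same side of the threshold, 5 passed it with the same sign and 6 turned in sign, of which 1, BCL2A1 with shGOLM1 replicate 1 alone, also passed; the cause was not tested. With all 4 libraries, BCL2A1 turned to -0.06 with the replicate block and to -0.14 in limma-voom, and no member passed. Leaving out 1 library gave log2 fold changes from -0.74 to -0.44 for BCL2L1, from -0.06 to 0.28 for BCL2, from -0.02 to 0.38 for MCL1, from -0.62 to 0.0046 for BCL2L2, from -1.04 to 0.84 for BCL2A1 and from -1.66 to -1.63 for GOLM1. The turned signs were -0.06 for BCL2 and 0.0046 for BCL2L2 without shGOLM1 replicate 1, and -0.02 for MCL1 and -1.04 for BCL2A1 without shGOLM1 replicate 2. Between 0 and 3 members passed when 1 library was left out. Of all tested genes 0 passed in edgeR as planned, with 1668 at an unadjusted p under 0.05, while 192 passed with no filter on low counts, 203 with the replicate block, 554 in DESeq2, and 20 to 10290 when 1 library was left out. BCL2A1 was under the filter of 5 CPM in 2 libraries and has no value there. The titles number the replicates without saying whether same-numbered libraries were handled together. Deviations of same-numbered libraries correlated at -0.0977 across genes, over 2 pairs. The median gap of all tested genes was 0.95 between the shGOLM1 libraries and 0.15 between the shscramble libraries. With gaps so unequal, this correlation cannot show whether the numbers mark a pairing. Low counts limit BCL2A1 most, with 53 to 131 per library.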

Other observations

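Genes that act on the members' proteins were also read. Of 10 regulators of MCL1 and BCL-XL protein turnover 9 were tested, and by edgeR 0 rose and 0 fell, where 0% of all tested genes did, with 0 at an unadjusted p under 0.05 against 11.8% of all tested genes. The median log2 fold change was 0.01, with median differences from the shscramble mean of 0.27 in shGOLM1 replicate 1 and -0.17 in replicate 2. USP9X, a deubiquitinase of MCL1, was at 122 and 71.6 CPM in shGOLM1 against 52.0 and 73.0 CPM in shscramble, and HUWE1, a ubiquitin ligase of MCL1, at 817 and 378 against 380 and 514 CPM. BTRC, a substrate receptor that recognises phosphorylated MCL1, was at 71.0 and 9.91 CPM in shGOLM1 against 52.0 and 54.2 CPM in shscramble. TPT1, whose product binds MCL1 and BCL-XL, was at 1100.1 and 5345.4 CPM in shGOLM1 against 1582.6 and 1446.6 CPM in shscramble. The groups overlapped in these 4 genes and in 7 of the 9 tested. The exceptions were GSK3B, at 115 and 88.2 CPM in shGOLM1 against 81.5 and 87.3 CPM in shscramble, and GSK3A, at 49.5 and 53.6 against 62.3 and 57.9 CPM. Over all 14166 tested genes the groups overlapped in 6844, while 25.2% had both shGOLM1 libraries higher and 26.5% both lower.

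Of 10 other binding partners and downstream genes, all were tested, 0 passed edgeR's adjusted threshold and 1, APAF1, was at an unadjusted p under 0.05, a share near the 11.8% of all tested genes. The median log2 fold change was 0.36, with median differences of 0.12 in shGOLM1 replicate 1 and 0.64 in replicate 2. APAF1, the scaffold of the apoptosome, was at 81.2 and 65.9 CPM in shGOLM1 against 34.4 and 43.3 CPM in shscramble, with a log2 fold change of 0.92 (SE 0.31; adjusted p = 0.42 in edgeR). FKBP8, which anchors BCL2 at mitochondria, was at 440 and 756 CPM in shGOLM1 against 322 and 291 CPM in shscramble. BECN1, the autophagy protein that BCL2 and BCL-XL bind, was at 38.6 and 21.3 CPM in shGOLM1 against 46.4 and 49.9 CPM in shscramble, and BAG1, a BCL2-binding co-chaperone, at 87.6 and 41.8 against 134 and 113 CPM. For these 4 genes the groups did not overlap, and VDAC1 and ITPR1 were also higher in both shGOLM1 libraries. Of the 10 genes, 4 were thus separated in the higher and 2 in the lower direction, and 4 overlapped. Over all tested genes 25.2% were separated in the higher and 26.5% in the lower direction.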
